A study of Homo sapiens with 6 samples.

Results

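The nuclear-encoded subunits of the respiratory chain and of ATP synthase were examined in WM266.4 cells, a human melanoma line, after silencing of the kinase RIPK4. Members were taken by symbol: protein-coding genes whose names start with NDUF, UQCR, ATP5 or COX4 to COX8, together with SDHA, SDHB, SDHC, SDHD, CYC1 and CYCS. This rule found 92 of 24526 genes in the count table, of which 15310 were protein coding. By complex, 36 members were subunits of complex I, 4 of complex II, 10 of complex III, 15 of complex IV and 18 of complex V. Another 8 were complex I assembly factors that carry the NDUF prefix, and 1 was cytochrome c. NDUFA4 and NDUFA4L2 were placed with complex IV despite their names, and ATP5MD and ATP5MPL are older symbols of ATP5MK and ATP5MJ. COX4I2, COX6A2, COX7B2, COX8C and NDUFA7 were not analysed here.

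Cells were transfected with a negative control siRNA (neg.si, 3 libraries) or with siRNA against RIPK4 (RIPK4.si, 3 libraries), and RNA was collected 48 h later. The silencing was transient, in 1 cell line and without a rescue arm. Poly(A)-enriched RNA was sequenced and read pairs were counted per gene without strand information. The authors describe the libraries of each condition as biological replicates, and p-values measure only the spread between these samples. The neg.si libraries held 31688095, 30539087 and 30056850 counts. The RIPK4.si libraries held 28464057, 30751441 and 30772817 counts. Values are CPM, the counts relative to the library size after TMM scaling, and fold changes are RIPK4.si over neg.si on the log2 scale. Levels and shares per kb divide CPM by the length of all annotated exons of a gene, merged over its transcripts. They therefore depend on how many exons are annotated, and rankings per length carry this limit.

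Melanocytic markers were abundant in every library, as the label of the cells states. All 8 of these markers were present, TYR being the most abundant, and their summed level was 4010, 3770 and 3570 CPM in neg.si against 2670, 2760 and 2630 CPM in RIPK4.si. Every RIPK4.si library thus lay below every neg.si library for this sum, and the part of this difference in the values below was not tested. Single markers differed in direction: the groups did not overlap for PMEL, TYR and DCT, lower in RIPK4.si, while the group means of MITF (348.0 and 358.0 CPM), MLANA (12.5 and 13.1 CPM) and TYRP1 (27.9 and 35.9 CPM) were higher in RIPK4.si. The means of SOX10 (367.0 and 331.0 CPM) and S100B (703.0 and 505.0 CPM) were lower in RIPK4.si, with overlapping groups. Blood, endothelial and muscle markers summed to at most 1.32, 1.56 and 1.35 CPM in any library. Of the keratinocyte markers, 3 of 4 were in the table, with KRT10 the most abundant, and their sum was 11.6, 10.2 and 10.5 CPM in neg.si and 14.2, 16.1 and 11.8 CPM in RIPK4.si. KRT5 was counted 19, 0 and 0 times in neg.si and 6, 0 and 0 times in RIPK4.si. KRT14 was counted 5, 0 and 0 times in each group, so both were seen only in neg.si 1 and RIPK4.si 1. The 5 fibroblast markers summed to 639, 633 and 818 CPM in neg.si and 1040, 512 and 780 CPM in RIPK4.si, nearly all of it COL1A2, while COL1A1, COL3A1 and DCN had group means of at most 0.359 CPM.

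RIPK4 itself was counted 2656, 2298 and 1739 times in the neg.si libraries and 585, 482 and 670 times in the RIPK4.si libraries. All RIPK4.si values lay below all neg.si values, as the labels state. The level fell from 72.3 ± 15.9 to 19.4 ± 2.47 CPM (SD, n = 3 each), a log2 fold change of -1.90 (SE 0.203, edgeR quasi-likelihood test with Benjamini-Hochberg adjustment, adjusted p = 0.0102). With neg.si 2, RIPK4.si 1, RIPK4.si 2 or RIPK4.si 3 left out, the adjusted p of RIPK4 in the same edgeR test was 0.106, 0.094, 0.0622 or 0.0725. The log2 fold change in these fits was -1.84, -1.91, -1.79 or -1.98. Without neg.si 1 or neg.si 3 the edgeR adjusted p was 0.0111 or 0.000476, and with all libraries in DESeq2 it was 1.21e-13.

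Oxidative phosphorylation passes electrons from NADH through complex I, or from succinate through complex II, to ubiquinone, and then through complex III and cytochrome c to complex IV, where oxygen is reduced. Complexes I, III and IV pump protons across the inner mitochondrial membrane, and complex V, the ATP synthase, uses the gradient. Most subunits are encoded in the nucleus, while core subunits of every complex except complex II are encoded in mitochondrial DNA, and in melanoma cells the coactivator PPARGC1A is a known regulator of this gene programme.

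The summed level of the 92 members varied more between libraries of one group than between the groups. It was 11431, 9800 and 7655 CPM in neg.si 1, 2 and 3, and 8385, 11712 and 8374 CPM in RIPK4.si 1, 2 and 3. The groups overlapped throughout, with neg.si 1 and RIPK4.si 2 high and neg.si 3, RIPK4.si 1 and RIPK4.si 3 low. Group means were 9628.8 ± 1894 CPM in neg.si and 9490.3 ± 1924 CPM in RIPK4.si (SD, n = 3 each), a ratio of 0.986 (exact permutation test, two-sided, p = 1.0, where the smallest p this design allows is 0.1). Within neg.si the sum in library 1 was 1.49 times that in library 3, and within RIPK4.si the sum in library 2 was 1.4 times that in library 1. Over the 6 libraries the members took between 0.809 and 1.12% of all counts. In bulk RNA, fewer cells of a kind and less RNA per cell cannot be told apart.

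**Figure D1:**
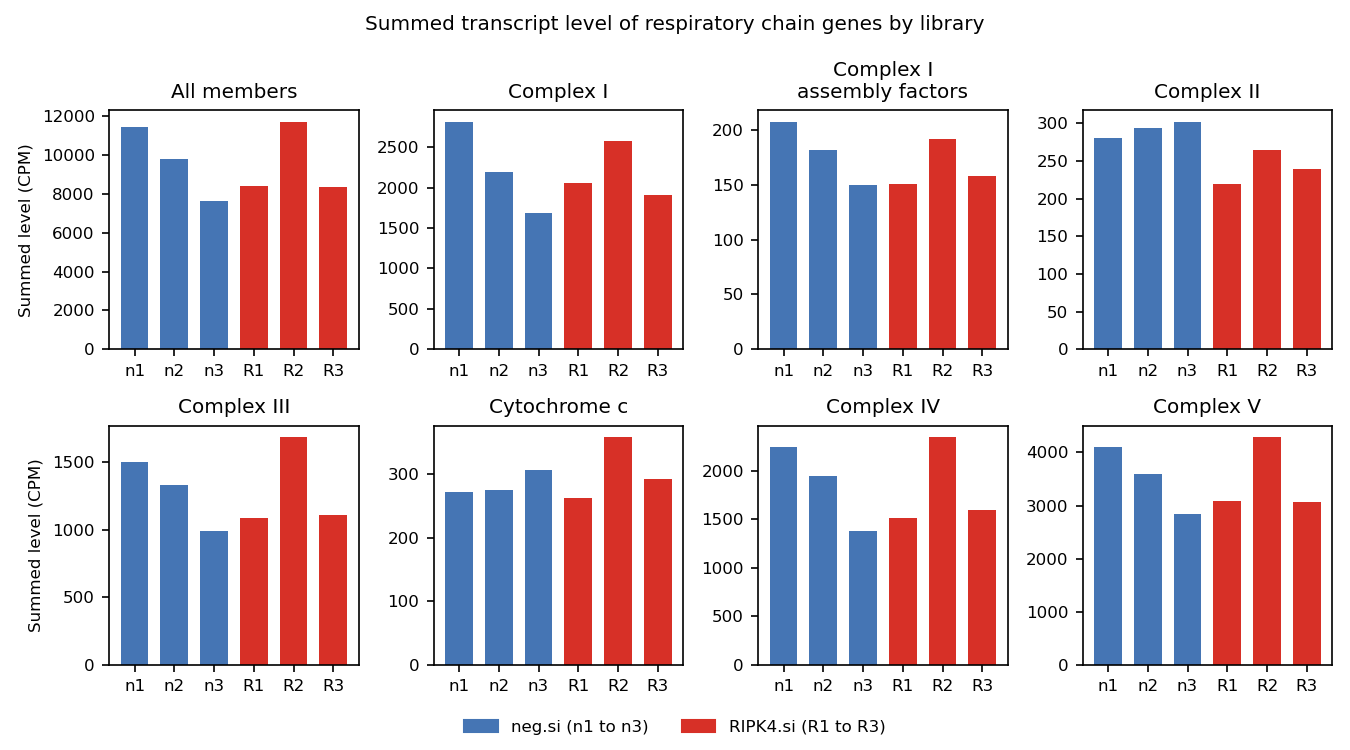
Summed CPM of the members of each complex in every library, with bars for neg.si (n1 to n3) in blue and RIPK4.si (R1 to R3) in red. Complexes I, III, IV and V are high in neg.si 1 and RIPK4.si 2 and low in neg.si 3, whereas the complex II sum is lower in each RIPK4.si library than in each neg.si library.

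In complexes I, III, IV and V the sum was highest in neg.si 1 within neg.si and in RIPK4.si 2 within RIPK4.si, and lowest of the 6 libraries in neg.si 3. The complex I sum was 2815, 2187 and 1681 CPM in neg.si and 2057, 2581 and 1912 CPM in RIPK4.si. The complex IV sum was 2249, 1945 and 1386 CPM in neg.si and 1518, 2348 and 1596 CPM in RIPK4.si. The complex V sum, the largest of the 5 complexes, was 4104, 3589 and 2837 CPM in neg.si and 3092, 4284 and 3068 CPM in RIPK4.si. In all 3 the neg.si libraries spanned a wider range than the distance between the group means, whose ratios were 0.98, 0.979 and 0.992. The complex III sum was 1504, 1329 and 993.2 CPM in neg.si and 1085, 1685 and 1108 CPM in RIPK4.si, a ratio of means of 1.01.

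Complex II, the only one of the 5 with no mitochondrially encoded subunit, had another order. Its sum was 281.1, 294.1 and 302.1 CPM in neg.si and 219.3, 263.9 and 239.7 CPM in RIPK4.si. Each RIPK4.si library was below each neg.si library, and neg.si 1, which was high for the other complexes, was the lowest neg.si library here. The means were 292.44 ± 10.61 and 240.94 ± 22.32 CPM (SD, n = 3 each), a ratio of 0.824. CYCS, the gene of cytochrome c, which carries electrons from complex III to complex IV, was at 271.3, 275.6 and 307.2 CPM in neg.si and 262.5, 357.9 and 291.6 CPM in RIPK4.si. It shared the high value in RIPK4.si 2 but was lowest, within neg.si, in library 1.

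As a share of the member sum, complex I took 23.0 ± 1.45% in neg.si and 23.1 ± 1.27% in RIPK4.si (SD, n = 3 each, exact permutation test, p = 0.9), and complex V took 36.5 ± 0.582% and 36.7 ± 0.157% (exact p = 0.8). The balance between the large complexes therefore differed by less than the spread between libraries. The complex II share was 2.46, 3.0 and 3.95% in neg.si and 2.61, 2.25 and 2.86% in RIPK4.si, with overlapping groups (exact permutation test, p = 0.4).

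Of the 92 members, 88 passed the filter on low counts and were tested. The pattern by library held for most single members: 38 of the 88 were highest in neg.si 1 and 42 in RIPK4.si 2, together 90.9%, against 42.2% of all tested genes. The lowest value fell in neg.si 3 for 56 members, in RIPK4.si 1 for 20, in RIPK4.si 3 for 11, in neg.si 2 for 1, and for 0 in neg.si 1 or RIPK4.si 2. Named after their values were seen, the 8 members with another highest library were ATP5MG, NDUFS1, SDHA and UQCR11 (neg.si 2), NDUFC2, SDHC and SDHD (neg.si 3) and NDUFA4L2 (RIPK4.si 1). Between libraries of one group, 80 of the 88 were higher in neg.si 1 than in neg.si 3 (90.9%, all genes 49.4%) and 83 were higher in RIPK4.si 2 than in RIPK4.si 1 (94.3%, all genes 49.6%).

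**Figure D2:**
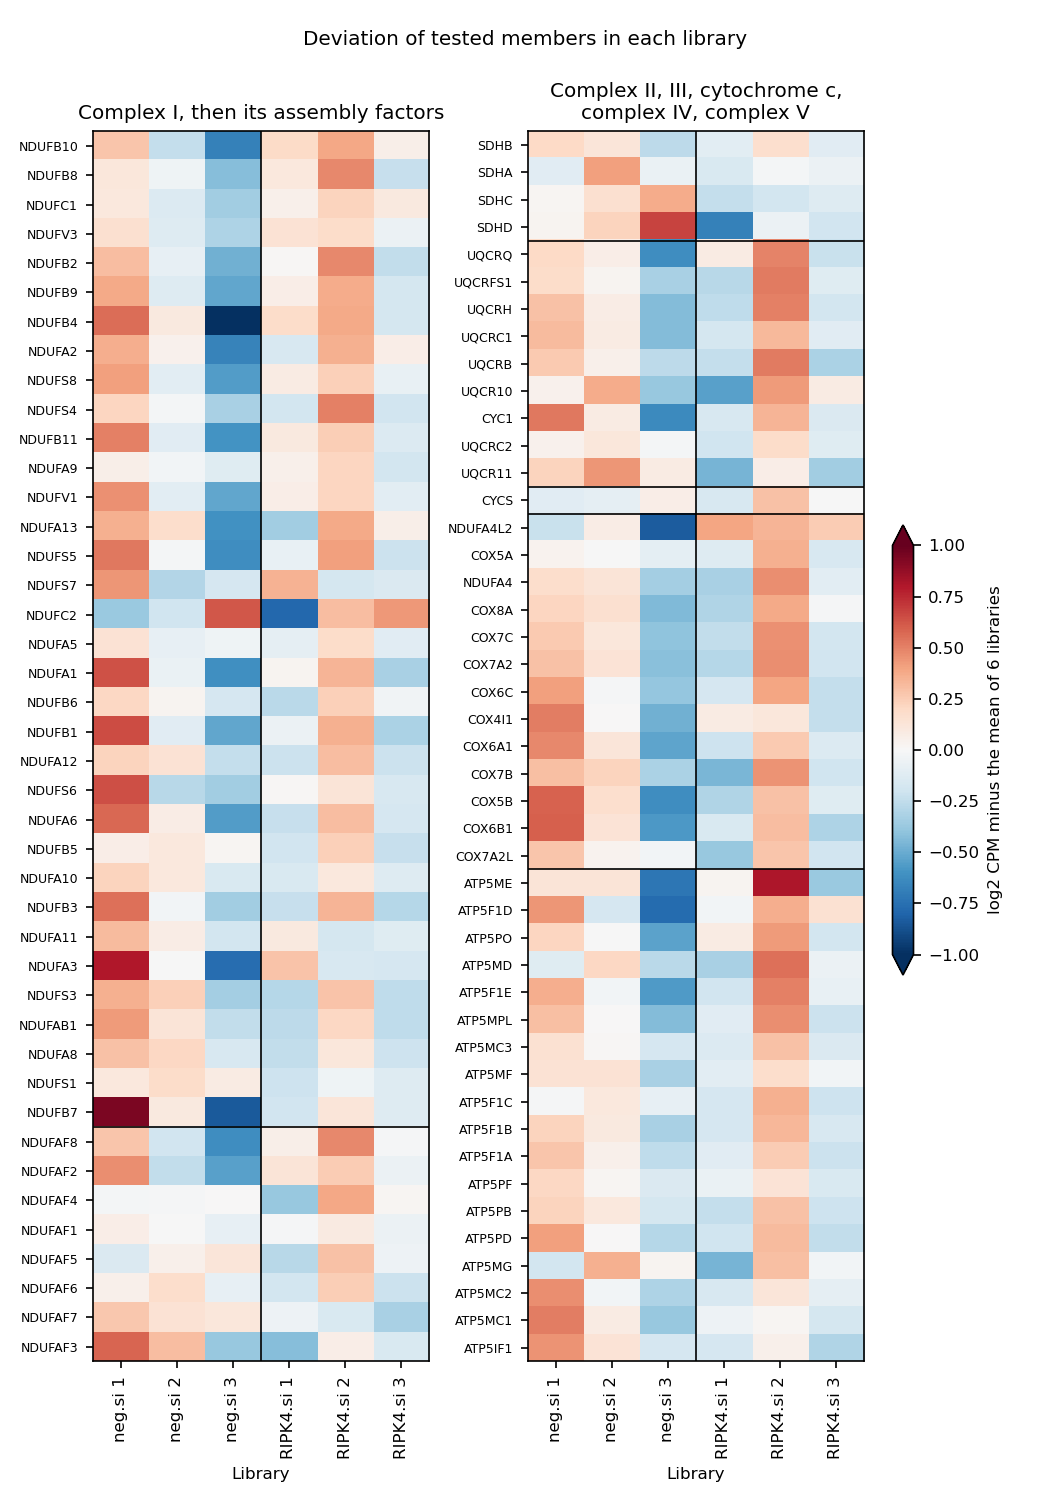
Deviation of tested members, in log2 CPM, each from its own mean over the 6 libraries, with members in rows by complex and libraries in columns. Most rows are high in neg.si 1 and RIPK4.si 2 and low in neg.si 3.

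The size of this difference between neg.si 1 and neg.si 3 varied among complexes. The median member of complex I was 0.70 higher in neg.si 1 on the log2 scale, with 34 of 35 tested members higher, and in the membrane arm of complex I the median was 0.84. For complexes III, IV and V the medians were 0.52, 0.67 and 0.58, with 9 of 9, 13 of 13 and 17 of 18 members higher in neg.si 1. For complex II the median was -0.20, with 1 of 4 members, SDHB, higher in neg.si 1. The 8 assembly factors of complex I had a median of 0.15, with 6 higher. Between RIPK4.si 2 and RIPK4.si 1 the medians were 0.32 for complex I, 0.20 for complex II, 0.54 for complex III, 0.60 for complex IV and 0.47 for complex V.

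The libraries also differed in how levels related to base composition. Over 16239 genes, the rank correlation of a library's deviation with GC content was 0.557, 0.081 and -0.55 in neg.si 1, 2 and 3, and -0.053, 0.166 and -0.079 in RIPK4.si 1, 2 and 3. The median deviation of the 88 members was 0.277, 0.07 and -0.333 in neg.si and -0.165, 0.296 and -0.158 in RIPK4.si. After the GC trend of each library was removed it was 0.291, 0.058 and -0.348 in neg.si and -0.192, 0.344 and -0.164 in RIPK4.si, as large as before. After removal of the trend with length, that of all annotated exons merged, it was 0.227, 0.066 and -0.265 in neg.si and -0.16, 0.296 and -0.138 in RIPK4.si. Among the members the neg.si 1 to neg.si 3 difference had a rank correlation of 0.37 with GC content and -0.37 with length, against 0.64 and -0.23 over all 16239 genes (across genes of the same libraries, which are not independent replicates, 88 of them members). Ribosomal protein lists, added after values had been seen, differed in the same way: the median neg.si 1 to neg.si 3 difference was 0.66 over 77 mitochondrial and 0.91 over 83 cytosolic ribosomal protein genes, with 68 and 77 of them higher in neg.si 1.

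The promoters of the members were searched for short motifs of factors known to act on respiratory genes. Whether a match goes with the variation between libraries was not tested. Windows from 250 bases before to 50 after the start came from RefSeq (GRCh38.p14) and were found for 74 of the 92 members. The NRF1 motif GCGCATGC, or GCATGCGC on the other strand, was in 16 of the 74 (21.6%), against 5.36% of 10413 promoters of tested coding genes and 3.27% of 27305 promoters in all. The ETS motif CCGGAAG, on the other strand CTTCCGG, which GABPA can bind, was in 21 (28.4%, against 18.9 and 10.7%), and the YY1 motif AAGATGGCG, on the other strand CGCCATCTT, was in 7 (9.46%, against 3.87 and 1.85%). The Sp motif GGGCGG, on the other strand CCGCCC, was in 43 (58.1%), below the 69.2% of tested coding promoters and above the 44.6% of all promoters. A match is a run of letters in the window, not a site shown to be bound. Among members with an NRF1 match before the start, the windows of CYCS, of the member with the highest CPM per kb in complexes I, II, IV and V, and of SDHD are shown with the NRF1 match in capitals, each as the strand of its gene reads. They lie at chr7:25125412-25125439 (minus strand) for CYCS, chr3:120596167-120596194 (plus) for NDUFB4, chr1:17054215-17054242 (minus) for SDHB, chr2:97645916-97645943 (plus) for COX5B, chr10:7788145-7788172 (plus) for ATP5F1C and chr11:112086753-112086780 (plus) for SDHD. The last line is a second window of SDHD, chr11:112086786-112086812 (plus), with its ETS match in capitals.
CYCS: atgctcgccaGCATGCGCgcgcaggtcc
NDUFB4: agagcacttcGCGCATGCgcatatcacc
SDHB: agccaaatggGCATGCGCcgctactgcg
COX5B: gcagagctggGCATGCGCaatttccgcc
ATP5F1C: gggagcttcgGCGCATGCgcgctgaggc
SDHD: agctgtgtttGCGCATGCgcgacgggtg
SDHD with the ETS match: cgcctctcgaCTTCCGGttcacccagc
The NRF1 matches start 162 bases before the RefSeq start in CYCS, 152 in NDUFB4, 193 in SDHB, 129 in COX5B, 15 in ATP5F1C and 103 in SDHD.

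Between RIPK4.si and neg.si, 0 of the 88 tested members passed an adjusted p of 0.05 in the edgeR quasi-likelihood test, where 0.767% of 16297 tested genes did. DESeq2 also called 0 members, against 2.91% of the 15015 genes it adjusted. An unadjusted p under 0.05 was reached by 3 members (3.41%, all genes 10.8%), SDHD, SDHC and UQCR11, each lower in RIPK4.si. With the GC trend removed, NDUFB10, higher in RIPK4.si, reached it beside these 3 (all genes 15.9%). With the length trend removed, NDUFAF7, SDHD and UQCR11 did, each lower in RIPK4.si (all genes 11.7%). The groups did not overlap for 6 members (6.82%, all genes 17.6%): SDHD, SDHC, UQCR11, NDUFAF7 and NDUFS1 were lower in each RIPK4.si library, and NDUFA4L2 was higher in each. After removal of the GC trend, 4 were higher (NDUFA4L2, NDUFAF8, NDUFB10 and NDUFC1) and 3 lower (SDHC, SDHD and UQCR11), where 23.0% of all genes did not overlap. After removal of the length trend, 2 were higher (NDUFA4L2 and NDUFC1) and 3 lower (NDUFAF7, SDHD and UQCR11), against 18.5% of all genes. Without a trend removed, both shares lay below those of all tested genes. The median log2 fold change of the 88 was -0.007 (all tested genes -0.023), with 41 above 0 and 47 below, and the values ran from -0.62 for SDHD to 0.74 for NDUFA4L2. For 84 of the 88 the 95% interval stayed within a 2-fold difference in either direction, the exceptions being ATP5ME, NDUFA4L2, NDUFB7 and SDHD.

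**Figure D3:**
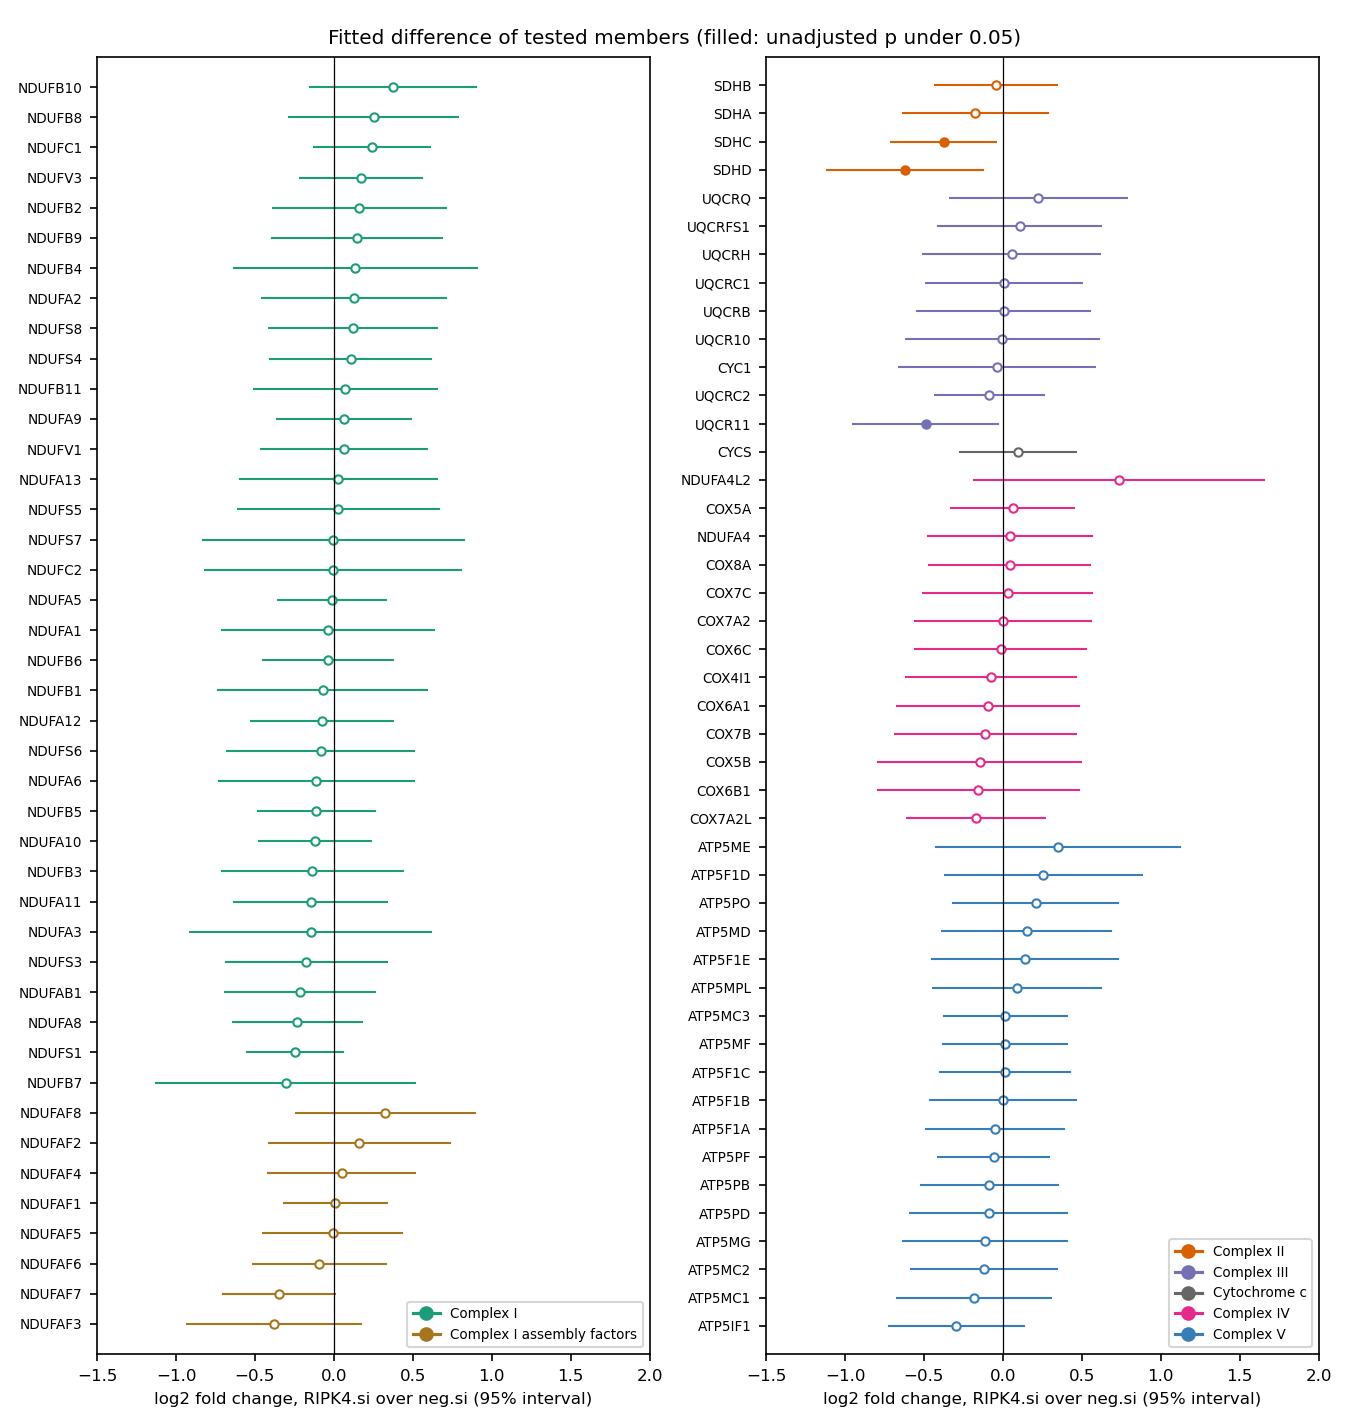
Log2 fold change of RIPK4.si over neg.si for tested members, each with its 95% confidence interval, grouped and coloured by complex and filled where the unadjusted p was under 0.05. The 3 intervals that lie wholly below 0 belong to SDHD, SDHC and UQCR11, and the other intervals drawn span 0.

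These counts depended on single libraries. Without neg.si 1, 7 members had an unadjusted p under 0.05 in edgeR, 5 higher in RIPK4.si (ATP5F1D, NDUFAF2, NDUFAF8, NDUFB10 and NDUFC1) and 2 lower (SDHC and SDHD). Without neg.si 3 there were also 7, all lower in RIPK4.si, UQCR11, NDUFAF7 and NDUFB7 among them, but not SDHC or SDHD, which were highest in that library. The shares of all tested genes at this p were 13.5% without neg.si 1 and 14.3% without neg.si 3, above those of the members. Without neg.si 2 or RIPK4.si 3 the count was 1 (SDHD, all genes 6.88 and 6.48%), without RIPK4.si 2 it was 2 (SDHD and UQCR11, all genes 8.73%), and without RIPK4.si 1 it was 0 (all genes 8.54%). The count of members whose groups did not overlap was 15 without neg.si 1, 11 without neg.si 3 and 16 without RIPK4.si 2, where the shares of all genes were 31.7, 31.1 and 26.3%. The median log2 fold change of the members was 0.15 without neg.si 1, -0.14 without neg.si 3 and -0.17 without RIPK4.si 2, and edgeR called 0 members in each of these fits, in which it called 70, 295 and 4 of all genes.

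In complex I, which oxidises NADH, the 35 tested subunits had a median log2 fold change of -0.012, with 15 above 0 and 20 below. By position, the median was 0.06 over 7 tested subunits of the NADH-oxidising N module, -0.06 over 6 of the ubiquinone-binding Q module and -0.02 over 22 of the membrane arm. NDUFS1 (chr2:206114817-206159509, GRCh38), which holds iron-sulfur clusters of the N module, was at 213.0, 224.3 and 209.8 CPM in neg.si and 171.5, 192.4 and 181.3 CPM in RIPK4.si. The groups did not overlap, with each RIPK4.si library below each neg.si library and neg.si 1 within the range of its group, but they overlapped after removal of the GC or the length trend. Its log2 fold change was -0.25 (SE 0.136, edgeR adjusted p = 0.591).

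NDUFS5, an accessory subunit of the membrane arm, had the highest level per length in complex I, at 272.5 CPM per kb. It was at 208.0, 141.9 and 93.5 CPM in neg.si and 137.0, 191.6 and 124.0 CPM in RIPK4.si, with the high libraries neg.si 1 and RIPK4.si 2 in both groups and a log2 fold change of 0.03.

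NDUFB10, also an accessory subunit of the membrane arm, was at 60.5, 42.2 and 31.1 CPM in neg.si and 56.7, 65.0 and 51.7 CPM in RIPK4.si. The RIPK4.si libraries lay above neg.si 2 and 3 but 2 of them below neg.si 1, so the groups overlapped, as they no longer did after removal of the GC trend. Means were 44.6 ± 14.82 and 57.8 ± 6.72 CPM (SD, n = 3 each), with a log2 fold change of 0.38 (SE 0.234, edgeR adjusted p = 0.669, 0.179 to 0.989 over the alternatives) that was 0.67 without neg.si 1 and 0.17 without neg.si 3. NDUFC1, another membrane-arm subunit, was at 42.0, 35.6 and 30.7 CPM in neg.si and 40.6, 45.5 and 41.8 CPM in RIPK4.si. Here too neg.si 1 lay among the RIPK4.si values, though not after removal of the GC trend, and the log2 fold change was 0.24 (SE 0.164), 0.38 without neg.si 1 and 0.14 without neg.si 3. NDUFB7, which lies on the intermembrane-space side of the membrane arm, was at 73.0, 40.6 and 21.2 CPM in neg.si and 33.1, 41.3 and 34.6 CPM in RIPK4.si. All 3 RIPK4.si libraries fell inside the range of neg.si, in which library 1 exceeded library 3 by 1.78 on the log2 scale. Its log2 fold change was -0.31 (SE 0.364, edgeR adjusted p = 0.881) and was 0.25 without neg.si 1. NDUFB8, of the same arm, was at 7.62, 6.86 and 5.23 CPM in neg.si and 7.6, 9.87 and 6.01 CPM in RIPK4.si, with overlapping groups and a log2 fold change of 0.25, which was 0.06 without RIPK4.si 2, 0.12 without neg.si 3, 0.39 without neg.si 1 and 0.42 without RIPK4.si 3.

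Among the 8 assembly factors, 4 had a log2 fold change above 0 and 4 below, with a median of 0.001. NDUFAF7, a methyltransferase needed for the assembly of complex I, was at 21.1, 19.3 and 18.9 CPM in neg.si and 16.9, 15.8 and 13.9 CPM in RIPK4.si. The groups did not overlap, except after removal of the GC trend. Its log2 fold change was -0.35 (SE 0.159, edgeR adjusted p = 0.481). NDUFAF8, a small partner of the assembly factor NDUFAF5, was at 14.6, 10.5 and 7.81 CPM in neg.si and 12.5, 16.9 and 11.9 CPM in RIPK4.si, with neg.si 1 among the RIPK4.si libraries, except after removal of the GC trend. Its log2 fold change was 0.33 (SE 0.252), 0.60 without neg.si 1 and 0.14 without neg.si 3.

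Complex II oxidises succinate, and its 4 subunits had a median log2 fold change of -0.27, each below 0, although that of SDHB was near 0 and reversed when single libraries were left out. For SDHA only neg.si 2, at 9.09 CPM, lay above the RIPK4.si libraries. Its levels in neg.si 1 and 3, 6.297 and 6.485 CPM, lay within the RIPK4.si range of 6.134 to 6.715 CPM. SDHD (chr11:112086824-112120016, plus strand, GRCh38), 1 of the membrane anchors that hold the haem and the ubiquinone site, was at 58.1, 66.4 and 91.1 CPM in neg.si and 35.7, 54.7 and 49.9 CPM in RIPK4.si. All RIPK4.si values lay below all neg.si values, the nearest being RIPK4.si 2 and neg.si 1. The means were 71.9 ± 17.2 and 46.8 ± 9.89 CPM (SD, n = 3 each), and the log2 fold change was -0.62 (SE 0.22, edgeR adjusted p = 0.317, 0.133 to 0.74 over the alternatives). It was -0.41 without neg.si 3 and -0.45 without RIPK4.si 1. Of its canonical transcript, 23.8% is shared with a read-through gene.

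SDHC (chr1:161314257-161375340, plus strand), the other anchor, was at 85.8, 94.8 and 109.7 CPM in neg.si and 71.7, 74.7 and 77.6 CPM in RIPK4.si. Again the groups did not overlap, except after removal of the length trend, and the RIPK4.si libraries lay close together, at 74.7 ± 2.95 CPM against 96.8 ± 12.1 CPM (SD, n = 3 each). The log2 fold change was -0.37 (SE 0.148, edgeR adjusted p = 0.383, 0.199 to 0.846 over the alternatives). Both anchors were highest in neg.si 3, the library in which most other members were lowest.

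The catalytic subunits of complex II had overlapping groups. SDHB (chr1:17018722-17054170, minus strand), the iron-sulfur subunit, was at 130.9, 123.7 and 94.8 CPM in neg.si and 105.7, 127.8 and 105.6 CPM in RIPK4.si, with a log2 fold change of -0.04 (SE 0.17, edgeR adjusted p = 0.975). The log2 fold change of SDHB was 0.066, 0.017, 0.014 and 0.012 without neg.si 1, neg.si 2, RIPK4.si 1 and RIPK4.si 3. Unlike the anchors, this subunit had its lowest level in neg.si 3. SDHA (chr5:218241-257082, plus strand), the flavoprotein, was counted 195, 273 and 206 times in neg.si and 180, 194 and 203 times in RIPK4.si. These counts, 7.29 ± 1.56 and 6.46 ± 0.296 CPM (SD, n = 3 each), were far below those of its partners: 0.79 CPM per kb for SDHA against 46.9 CPM per kb for SDHB. The SDHA locus shares 69.4% of its canonical transcript with the read-through gene AC021087.5, itself counted 9, 7 and 12 times in neg.si and 16, 13 and 10 times in RIPK4.si, so the SDHA level is uncertain.

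**Figure D4:**
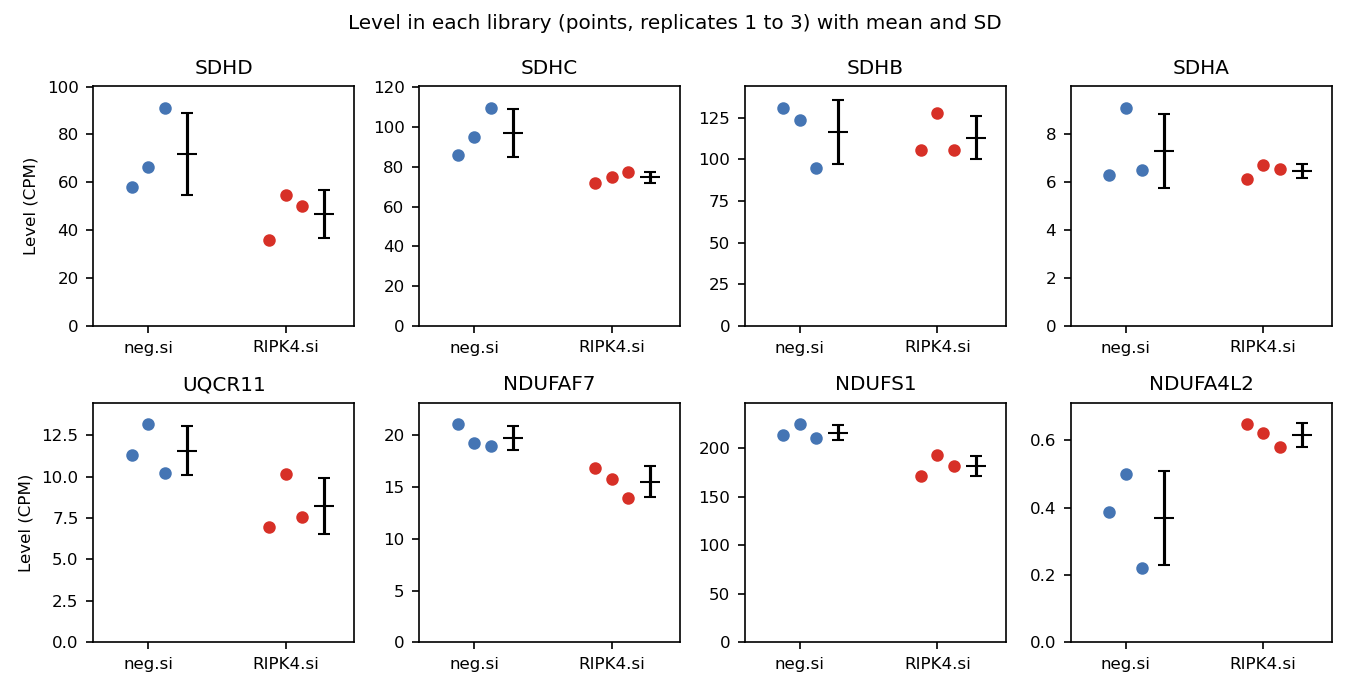
Level in CPM of the 4 complex II subunits and of the other members whose groups did not overlap, with a point for each library and the mean with SD beside each group. SDHD, SDHC, UQCR11, NDUFAF7 and NDUFS1 have every RIPK4.si library below every neg.si library, NDUFA4L2 has the reverse, and SDHB and SDHA overlap.

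Complex III passes electrons from ubiquinol to cytochrome c, and 5 of its 9 tested members had a log2 fold change above 0 and 4 below (median 0.006). UQCR11 (chr19:1597169-1605473, minus strand), a small accessory subunit, was at 11.3, 13.2 and 10.2 CPM in neg.si and 6.95, 10.1 and 7.59 CPM in RIPK4.si. The groups did not overlap, although RIPK4.si 2 and neg.si 3 nearly met, and this depended on the scaling. They overlapped with DESeq2 size factors, in DESeq2 or edgeR, with mitochondrially encoded genes left out and with no filter on low counts. They also overlapped without neg.si 1, neg.si 2, RIPK4.si 1 or RIPK4.si 3. With DESeq2 size factors in edgeR the unadjusted p was 0.0516. The log2 fold change was -0.49 (SE 0.205, edgeR adjusted p = 0.421, 0.223 to 0.937 over the alternatives), and 18.1% of its transcript is shared with a read-through gene. UQCRQ, an accessory subunit next to cytochrome b, was at 80.0, 73.1 and 45.2 CPM in neg.si and 73.8, 98.2 and 59.6 CPM in RIPK4.si, with overlapping groups and a log2 fold change of 0.22 (SE 0.249), which was 0.40 without neg.si 1, 0.39 without RIPK4.si 3, 0.018 without neg.si 3 and 0.021 without RIPK4.si 2. CYC1, the cytochrome c1 of the complex (chr8:144095039-144097525), was at 152.7, 111.6 and 67.8 CPM in neg.si and 94.4, 133.5 and 95.8 CPM in RIPK4.si. The RIPK4.si range lay within that of neg.si, and the log2 fold change was -0.04 (SE 0.277, edgeR adjusted p = 0.986).

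UQCRH, the hinge protein beside cytochrome c1, was the member of complex III with the highest level per length, at 199.6 CPM per kb. It took 100% of the pair it forms with its near copy UQCRHL, which was counted 1, 1 and 4 times in neg.si and 0 times in each RIPK4.si library, too few for a comparison. CYCS (chr7:25120091-25125361) had means of 284.7 ± 19.6 CPM in neg.si and 304.0 ± 48.9 CPM in RIPK4.si (SD, n = 3 each), a log2 fold change of 0.10 (SE 0.162, edgeR adjusted p = 0.927). The annotation lists 42 pseudogenes of CYCS, and 53 of the 92 members have at least 1 pseudogene of their name, so their levels are uncertain where reads were shared.

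Complex IV reduces oxygen, and several of its nuclear subunits exist as tissue isoforms. Of its 13 tested members, 6 had a log2 fold change above 0 and 7 below, with a median of -0.015. COX4I1, the widespread isoform of COX4, was at 231.9, 163.1 and 116.6 CPM in neg.si and 171.8, 175.5 and 137.4 CPM in RIPK4.si, with a log2 fold change of -0.08. Its range in RIPK4.si lay inside that of neg.si. COX5A was nearly even, at 115.5 ± 5.32 CPM in neg.si and 120.6 ± 25.5 CPM in RIPK4.si, whereas COX5B varied more within neg.si, at 110.6 ± 43.3 against 99.9 ± 22.0 CPM (SD, n = 3 each). COX6B1 was at 190.5 ± 73.0 and 171.0 ± 39.5 CPM, with a log2 fold change of -0.16. COX8A had the highest level per length in complex IV, at 174.1 CPM per kb, and was at 97.7, 94.4 and 62.1 CPM in neg.si and 68.4, 109.5 and 83.8 CPM in RIPK4.si. Its high library in RIPK4.si was again library 2, and the groups overlapped.

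COX7A1, an isoform known from heart and muscle, and COX6B2, known from testis, were close to absent. COX7A1 was counted 4, 1 and 0 times in neg.si and 3, 2 and 5 times in RIPK4.si, and COX6B2 was counted 2, 3 and 3 times in neg.si and 2, 1 and 0 times in RIPK4.si. Both were left out of the test by the filter. Of the COX7A family, per kb of exon, COX7A2 took 87.8% in neg.si and 89.0% in RIPK4.si and COX7A2L, which takes part in supercomplexes of complexes III and IV, took 12.2 and 10.8%. COX7A2L itself was at 94.1, 79.9 and 76.3 CPM in neg.si and 59.9, 94.3 and 68.2 CPM in RIPK4.si. RIPK4.si 2 lay with the neg.si libraries, and the log2 fold change was -0.17 (SE 0.193), -0.37 without RIPK4.si 2 and -0.026 without RIPK4.si 1.

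NDUFA4 was at 449.4 ± 83.0 CPM in neg.si and 463.2 ± 136.3 CPM in RIPK4.si (SD, n = 3 each), and took 99.9 and 99.8% of the pair with NDUFA4L2 per kb. NDUFA4L2 (chr12:57234903-57240715), a paralogue known to be induced by low oxygen, was counted 12, 15 and 7 times in neg.si and 19, 18 and 18 times in RIPK4.si. Each RIPK4.si library was higher, but NDUFA4L2 passed the filter mostly through that group. Its log2 fold change was 0.74 (SE 0.408, edgeR adjusted p = 0.596), 0.48 without neg.si 3 and 1.03 without neg.si 2. The gene shares 3.5% of its canonical transcript with SHMT2 on the opposite strand, and reads in this part cannot be told apart by strand. SHMT2 was counted 3562, 2865 and 2203 times in neg.si and 3693, 4949 and 3916 times in RIPK4.si.

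In complex V, 10 of 18 members had a log2 fold change above 0 and 8 below, with a median of 0.007. ATP5F1B, the catalytic beta subunit, had the highest level per length of the 92 members, at 326.1 CPM per kb. This rank rests on its 2.24 kb of annotated exon. ATP5F1A had a higher mean over all libraries, 758.7 against 729.7 CPM, but 10.91 kb of annotated exon and so 69.56 CPM per kb. ATP5F1B was at 841.4, 771.1 and 574.3 CPM in neg.si and 641.6, 905.8 and 643.9 CPM in RIPK4.si. The groups overlapped and their means nearly coincided, at 728.9 ± 138.5 and 730.5 ± 151.9 CPM (SD, n = 3 each, log2 fold change 0.003, SE 0.206). The log2 medians of the parts of the enzyme were 0.01 for the catalytic F1 head, -0.07 for the peripheral stalk, -0.12 for the c ring and 0.09 for the other membrane subunits.

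The c ring is built from a single mature protein that ATP5MC1, ATP5MC2 and ATP5MC3 all encode. Per kb of exon, ATP5MC1 took 22.2 ± 2.31% of the 3 in neg.si and 20.9 ± 1.71% in RIPK4.si, ATP5MC2 took 32.0 ± 2.25 and 31.3 ± 1.21%, and ATP5MC3 took 45.8 ± 4.35 and 47.7 ± 2.32% (SD, n = 3 each, exact permutation tests, p = 0.5, 0.7 and 0.6). None of these shares differed by more than the spread between libraries. ATP5IF1, which inhibits the enzyme when it runs in reverse, was at 65.8, 52.9 and 43.0 CPM in neg.si and 42.8, 49.98 and 39.1 CPM in RIPK4.si. The groups overlapped through RIPK4.si 2, and the log2 fold change was -0.29 (SE 0.189, edgeR adjusted p = 0.686), -0.11 without neg.si 1 and -0.43 without neg.si 3. ATP5ME, subunit e of the membrane part, was at 6.14, 6.16 and 3.37 CPM in neg.si and 5.72, 9.93 and 4.31 CPM in RIPK4.si. Its highest value was RIPK4.si 2, and its log2 fold change of 0.35 (SE 0.343) was -0.05 without that library. Of the canonical ATP5ME transcript, 39.6% is shared with MYL5 on the opposite strand, so its level is uncertain. MYL5 was counted 104, 81 and 104 times in neg.si and 71, 96 and 97 times in RIPK4.si.

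Levels per length differed widely among subunits that occur in equal numbers in a complex, and members that share most of their exons with other genes were among the low ones. At least 50% of the canonical transcript was shared in 7 members, NDUFV2 (90.0%), NDUFA13 (83.9%), NDUFB8 (72.0%), SDHA (69.4%), NDUFA11 (68.2%), ATP5PO (63.8%) and NDUFS7 (51.3%), named for this share. Their median level was 0.883 CPM per kb, with a range of 0.085 to 8.41, against 36.9 CPM per kb for the 56 members that share none and 21.9 for the 29 that share some. For 5 of the 7 a partner was a read-through gene on the same strand, while the partners of NDUFV2 and NDUFS7 were long noncoding RNAs. NDUFV2, a core subunit of the N module, was counted 4, 5 and 11 times in neg.si and 10, 6 and 6 times in RIPK4.si and did not pass the filter. NDUFS7, a core subunit of the Q module, was counted 33, 18 and 21 times in neg.si and 29, 19 and 21 times in RIPK4.si. The partners were also rarely counted in the case of NDUFA13, whose read-through gene AC011448.1 was counted 5, 6 and 14 times in neg.si and 8, 1 and 10 times in RIPK4.si. How the counting treated read pairs that fit more than 1 gene is not given in the sources used here, and levels of these members are uncertain.

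**Figure D5:**
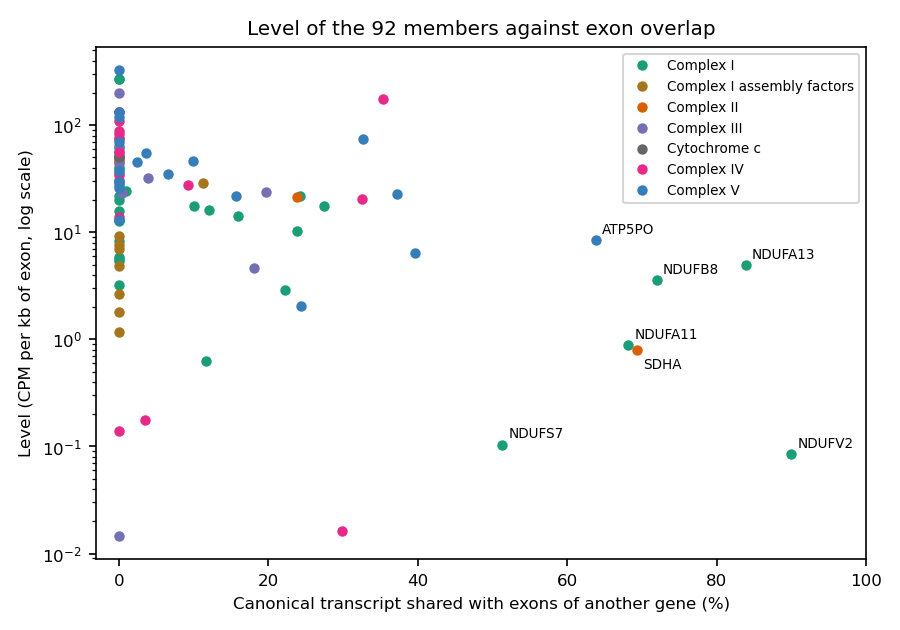
Mean level of each member in CPM per kb of exon, on a log axis, against the percent of its canonical transcript shared with exons of other genes. The 7 members that share at least 50% all lie at or below 8.41 CPM per kb.

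The mitochondrially encoded subunits, transcribed from their own genome, were compared with the nuclear members. Their 13 genes summed to 107340, 121310 and 95400 CPM in neg.si and 87153, 131320 and 108020 CPM in RIPK4.si. RIPK4.si 2 was the highest library for this sum and for the nuclear members, while neg.si 2, not neg.si 1, was the highest of neg.si. The ratio of the mitochondrially encoded to the nuclear sum was 9.39, 12.4 and 12.5 in neg.si and 10.4, 11.2 and 12.9 in RIPK4.si, with means of 11.4 ± 1.75 and 11.5 ± 1.28 (SD, n = 3 each, exact permutation test, p = 1.0). The edgeR test called 0 of the 13 genes (all genes 0.767%), and 0 had an unadjusted p under 0.05 (all genes 10.8%).

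Related nuclear genes were read beside the members. Of 45 tested assembly factors outside the symbol rule, edgeR called 0 and 0 had an unadjusted p under 0.05, with a median log2 fold change of -0.06. The shares of all tested genes were 0.767 and 10.8%. Of 17 genes of the citric acid cycle, which supplies NADH and succinate, 0 were called and 0 had an unadjusted p under 0.05 (median -0.02). The same held for 7 genes of mitochondrial carriers and channels, SLC25A3, SLC25A4, SLC25A5, VDAC1, VDAC2, VDAC3 and UCP2 (median 0.005). The groups did not overlap for 2 of the assembly factors, both lower in RIPK4.si, and for 0 of the citric acid cycle genes. They did not overlap for 1 carrier, SLC25A3, higher in RIPK4.si (all genes 17.6%). Of 20 regulators of mitochondrial biogenesis, edgeR called 0 (all genes 0.767%), and 2 had an unadjusted p under 0.05 (all genes 10.8%), PPARGC1B and MTERF1. The groups did not overlap for 5 of the 20 (all genes 17.6%), POLG, higher in RIPK4.si, and PPARGC1A, PPARGC1B, TFB1M and MTERF1, lower in RIPK4.si.

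PPARGC1A was at 15.9, 16.8 and 19.6 CPM in neg.si and 13.4, 11.3 and 15.6 CPM in RIPK4.si. Each RIPK4.si library was below each neg.si library, and the log2 fold change was -0.37 (SE 0.183, edgeR adjusted p = 0.526). PPARGC1B, its paralogue and a coactivator of the same receptors, was at 9.59, 9.79 and 11.5 CPM in neg.si and 7.74, 3.88 and 6.75 CPM in RIPK4.si. RIPK4.si 2 was the lowest for both coactivators and among the highest for the respiratory members. The log2 fold change of PPARGC1B was -0.75 (SE 0.257, edgeR adjusted p = 0.294). NRF1, the factor whose motif was searched for, was at 12 ± 0.995 CPM in neg.si and 14.2 ± 1.49 CPM in RIPK4.si (SD, n = 3 each), with a log2 fold change of 0.24 (SE 0.17, edgeR adjusted p = 0.729). GABPA, at 38.4 ± 9.12 and 34.8 ± 2.31 CPM, YY1, at 98.8 ± 17.1 and 110.0 ± 12.6 CPM, and TFAM, which packages mitochondrial DNA, at 42.8 ± 9.14 and 44.2 ± 2.25 CPM, had log2 fold changes of -0.14, 0.16 and 0.05. ESRRA, a nuclear receptor partner of PPARGC1A, was at 15.9 ± 5.78 and 19.2 ± 3.74 CPM, with a log2 fold change of 0.27.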

How the data were processed

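The authors sequenced poly(A)-enriched RNA. Their reads were trimmed (Cutadapt) and mapped to GRCh38.p13 (TopHat), and HTSeq assigned pairs to genes, ignoring strand. The deposited values are raw counts per gene in 6 libraries. The deposited table also holds a ratio (fold change), a log2 fold change, a p-value and normalised signal columns of the authors' own comparison with DESeq2; these, and the FDR column, were not used. The members and lists were chosen with earlier results of these data known.

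Counts were tested with edgeR 4.0.16 in R 4.3.3 (TMM, filterByExpr, quasi-likelihood test, Benjamini-Hochberg adjustment over all tested genes). DESeq2 1.42.0, other normalisations and filters, removal of GC or length trends, a replicate block and leaving out each library were alternatives. Scripts were tested on simulated data. No libraries were alike enough to be counted as 1. Single values were compared with two-sided exact permutation tests. Between-library log2 CPM used a pseudocount of 0.1. Lengths, GC content and overlaps came from GENCODE 44, which matched 24416 of 24526 genes, and promoters from RefSeq (GRCh38.p14). Gene coordinates are those deposited with the counts. Genes named were the target, the complex II subunits, CYC1 and CYCS, the highest per kb and the extremes of fold change by complex, the 5 smallest p-values each way, isoforms and regulators; others were named after their values were seen. One member enters the counts, sums and medians but is not reported by itself here, nor drawn as a row of a figure.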

Additional observations from a re-analysis of the deposited data

How the results depend on the processing

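Under 15 alternatives, edgeR and DESeq2 called 0 members. Without neg.si 2, RIPK4.si 1 or RIPK4.si 3, however, edgeR called 0 of all genes, and without RIPK4.si 2 it called 4, so these fits say nothing about the members' calls. Of 239 values of 16 named members, 233 kept their direction and their side of the threshold, the lowest adjusted p being 0.133. Of the 6 that reversed, all with 1 library left out, the log2 fold change of ATP5ME ranged from -0.05 to 0.60, that of NDUFB7 from -0.64 to 0.25 and that of SDHB from -0.167 to 0.066. With each library left out in turn, members at an unadjusted p under 0.05 numbered 0 to 7, members whose groups did not overlap 5 to 16, and the log2 fold change of RIPK4 was -2.06 to -1.74. The median log2 fold change of the members was then -0.17 to 0.15, and the ratio of their summed CPM, an alternative set chosen after seeing the data, 0.875 to 1.1, against 0.986 to 0.996 under the other settings. Outside the left-out libraries, members at an unadjusted p under 0.05 numbered 2 to 4. With the replicate block, the median was -0.011, 3 members had an unadjusted p under 0.05 (all genes 10.6%) and 0 were called, against 131 of all genes. The correlations of deviations between libraries of the same number were -0.242, 0.251 and 0.346. Not every library correlated best with its own number, so these values did not show a pairing by number. KRT5 and KRT14, however, were counted only in the libraries numbered 1 in both groups, so whether the numbers pair the libraries was not settled. The cause of the changes was not tested. Depth limits the members counted fewer than 20 times per library.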

Other observations

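The data are 3 libraries per group of 1 cell line at 1 time, and RNA levels say nothing of protein, complex assembly or respiration. The standard error of the log2 fold change was 0.231 at the median member, and differences larger than this, such as 0.38 for NDUFB10, were still not resolved. Levels of members with pseudogenes or shared exons depend on how reads were assigned, and the annotation used here for overlaps may not be the release that was counted. Off-target action of the siRNA cannot be told apart from loss of RIPK4, since no second siRNA was used.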
